A study of Homo sapiens with 8 samples.

Results

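The genes described here are 60 genes of mitosis and the G2/M transition, picked by symbol from the 27945 genes counted in a fastGRO-seq experiment. They were listed by what their products do in mitosis, with earlier results of these data known. They comprise 7 cyclins, CDK1 and CDK1 activators, 8 mitotic kinases and chromosomal passenger proteins, 5 spindle checkpoint genes including CDC20, 10 centromere and kinetochore genes, 9 mitotic kinesins, 10 spindle assembly and cytokinesis genes, 9 condensin and mitotic chromosome genes, and the transcription factors FOXM1 and MYBL2. All 60 were found in the count table.

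A cell enters mitosis when cyclin B binds and activates the kinase CDK1, and the kinetochores, kinesins and condensins encoded by these genes then compact the chromosomes, attach them to the spindle and pull them apart. Most of the genes are transcribed late in the cell cycle, with peak expression in G2 and M, under the DREAM and B-MYB-MuvB complexes and FOXM1. Cells that leave the cycle, as in senescence, turn these genes down, which makes them a common readout of proliferation.

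Nascent RNA was measured in IMR90 cells, primary fibroblasts from human embryonic lung, that carried an inducible oncogenic RAS fused to the estrogen receptor (ER:RAS) delivered by a retrovirus. FastGRO-seq is a nuclear run-on assay, in which engaged polymerases add 4-thio-UTP to nascent transcripts that are then purified through biotin, and read counts reflect transcription rather than steady-state RNA. There were 4 groups of 2 libraries. Control cells are labeled as wild type with no 4-OHT treatment and no shRNA named. The other 3 groups were senescent cells that carried shControl, shMETTL3 or shMETTL14, in which 4-hydroxytamoxifen (4-OHT) activated RAS. The study's general ER:RAS protocol used 100 nM 4-OHT and harvest on day 6, but the labels of these libraries give neither dose nor day. METTL3 and METTL14 form the core of the complex that writes N6-methyladenosine on RNA, and each was targeted by 1 lentiviral hairpin. Senescence and shRNA infection cannot be told apart in comparisons with control cells. The study's text calls its fastGRO-seq experiments on senescent and proliferating cells biologically independent. The labels do not say whether the 2 libraries of a group came from separate cultures, so p-values measure the spread between these libraries, which may be in part technical.

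Library totals ranged from 14897360 to 20306299 counts, of which 86.2% to 92.5% lay on 21 ribosomal RNA entries, so that 1513930 to 2048475 counts per library covered all other genes. Counts were over whole gene bodies, introns included, in the hg19 build. The targeted genes followed the labels in part. METTL3 fell from 77 and 47 counts under shControl to 16 and 19 under shMETTL3 (log2 -2.04, SE 0.31, adjusted p = 1.79e-05 by edgeR). METTL14 had 24 and 28 counts under shControl and 18 and 14 under shMETTL14, which did not pass the test (log2 -0.86, SE 0.34, adjusted p = 0.0763). An shRNA acts on finished RNA, so nascent counts need not show the knockdown. The 7 fibroblast markers summed to 13731 to 35336 counts per library, while 4 immune markers summed to 0 to 7, 4 endothelial markers to 3 to 10 and 5 epithelial markers to 13 to 46.

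The promoters of these genes share sequence features that played no part in how they were chosen. Promoter windows of 300 bases (250 bases before to 50 after the start site) were taken from RefSeq on GRCh38.p14, where 53 of the 60 genes matched by symbol with 66 windows. AURKA, BIRC5, TTK, KNL1, TPX2, CDCA2 and FOXM1 had no match by symbol in the promoter set used. The cell cycle homology region (CHR, searched as TTTGAA or TTCGAA on both strands), a short element known to be bound by MuvB complexes, was present in 68.2% of the 66 windows against 16.4% of all 35116 promoter windows. CCAAT, the element bound by NF-Y, was present on either strand in 65.2% against 34.6%, and both elements together in 51.5% against 6.4%. E2F-type sites (TTTGGCGC, TTTCCCGC, TTTCGCGC or TTTGCCGC, either strand) were rarer, in 7.6% against 3.3%. A match is a description of the letters and does not show that a factor was bound there in these cells.

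Promoters of 4 genes are shown for their unlike patterns, a choice made after the counts were seen. MKI67 and TOP2A had at most 3 counts in any knockdown library, CCNB2 fell in senescence and differed between the knockdowns, and ECT2 was not called in senescence. Capitals mark CCAAT and CHR matches on either strand, positions count from the start site with -1 just before it, and each sequence is written 5′ to 3′ on the strand of the gene.
MKI67 promoter, chr10:128126374-128126673, minus strand: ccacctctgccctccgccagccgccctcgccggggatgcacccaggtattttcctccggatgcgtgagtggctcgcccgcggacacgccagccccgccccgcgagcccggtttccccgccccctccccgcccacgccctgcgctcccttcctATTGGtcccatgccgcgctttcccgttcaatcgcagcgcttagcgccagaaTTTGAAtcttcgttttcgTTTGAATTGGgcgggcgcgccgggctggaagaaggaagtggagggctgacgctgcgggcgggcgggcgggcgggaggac
TOP2A promoter, chr17:40417847-40418146, minus strand: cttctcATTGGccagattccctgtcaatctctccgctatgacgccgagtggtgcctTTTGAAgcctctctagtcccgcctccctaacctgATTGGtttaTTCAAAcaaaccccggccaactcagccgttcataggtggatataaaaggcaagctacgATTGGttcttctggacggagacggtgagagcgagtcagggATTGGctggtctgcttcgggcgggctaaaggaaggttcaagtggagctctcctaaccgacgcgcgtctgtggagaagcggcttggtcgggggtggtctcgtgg
CCNB2 promoter, chr15:59104896-59105195, plus strand: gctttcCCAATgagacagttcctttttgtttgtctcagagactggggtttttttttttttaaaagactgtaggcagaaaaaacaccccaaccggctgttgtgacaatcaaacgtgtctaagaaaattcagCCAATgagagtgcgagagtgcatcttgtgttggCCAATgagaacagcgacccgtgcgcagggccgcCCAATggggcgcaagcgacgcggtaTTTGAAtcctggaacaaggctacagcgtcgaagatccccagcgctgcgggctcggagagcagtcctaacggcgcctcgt
ECT2 promoter, chr3:172750476-172750775, plus strand: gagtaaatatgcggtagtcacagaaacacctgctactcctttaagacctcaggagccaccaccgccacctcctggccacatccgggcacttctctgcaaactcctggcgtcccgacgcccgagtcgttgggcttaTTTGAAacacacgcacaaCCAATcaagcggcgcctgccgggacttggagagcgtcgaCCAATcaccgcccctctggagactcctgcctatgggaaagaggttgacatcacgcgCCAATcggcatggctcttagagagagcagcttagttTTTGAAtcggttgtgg
In the MKI67 window a CHR match at -29 overlapped a reversed CCAAT at -24. In the CCNB2 window evenly spaced CCAAT matches at -120, -87 and -54 stood upstream of a CHR at -29. The ECT2 window shown, the upstream of 2, held the same kinds of match, with CCAAT at -97, -58 and -2 and CHR at -115 and 35.

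Nascent transcription of the 60 genes was highest in control cells, lower in senescent shControl cells and, after TMM scaling, lowest with either knockdown. Counts were scaled to a common library size by TMM (normalized counts). Folds are ratios of a group's summed counts over its summed TMM-scaled library sizes, and log2 values are those of the edgeR fit. Summed over the 60 genes, they were 3021 and 3096 in control libraries, 1013 and 1268 under shControl, 721 and 785 under shMETTL3 and 518 and 539 under shMETTL14, so the groups did not overlap. The step from shControl to shMETTL3 depended on the scaling. As a share of all counts, ribosomal RNA included, the 60 genes held 0.0184% and 0.0189% in control libraries, 0.00422% and 0.00570% under shControl, 0.00448% and 0.00555% under shMETTL3 and 0.00301% and 0.00283% under shMETTL14, so that shMETTL3 lay within the shControl range. As a share of counts outside ribosomal RNA they held 0.183% and 0.187%, 0.0566% and 0.0722%, 0.0386% and 0.0404%, and 0.0314% and 0.0324%, in the same order of groups, again without overlap. The median gene stood at 31.1% of its control level under shControl, 10.6% under shMETTL3 and 10.4% under shMETTL14. In bulk cells, fewer cycling cells and less nascent RNA per cell cannot be told apart. No gene of the 60 was at 0 in either control library, whereas 11 and 15 were at 0 under shMETTL3 and 9 and 14 under shMETTL14.

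**Figure D1:**
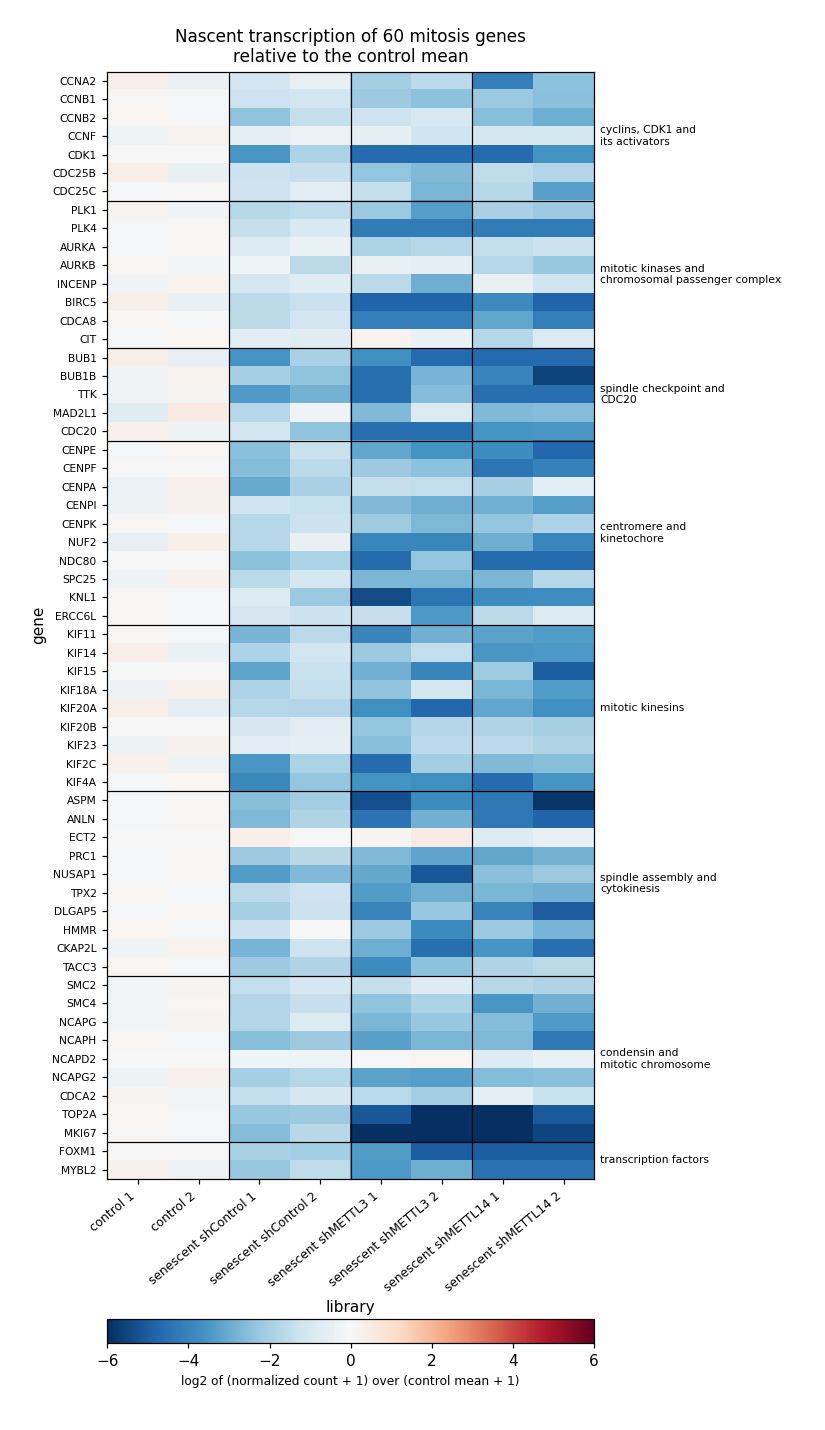
Each row is a gene and each column a library, with color giving the log2 of the normalized count plus 1 over the control mean plus 1 (values below -6 are drawn at -6), and rows are grouped by role. Senescent libraries are blue in nearly every row, darkest in the rows of MKI67 and TOP2A after knockdown, while the rows of ECT2 and NCAPD2 stay close to white.

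**Figure D2:**
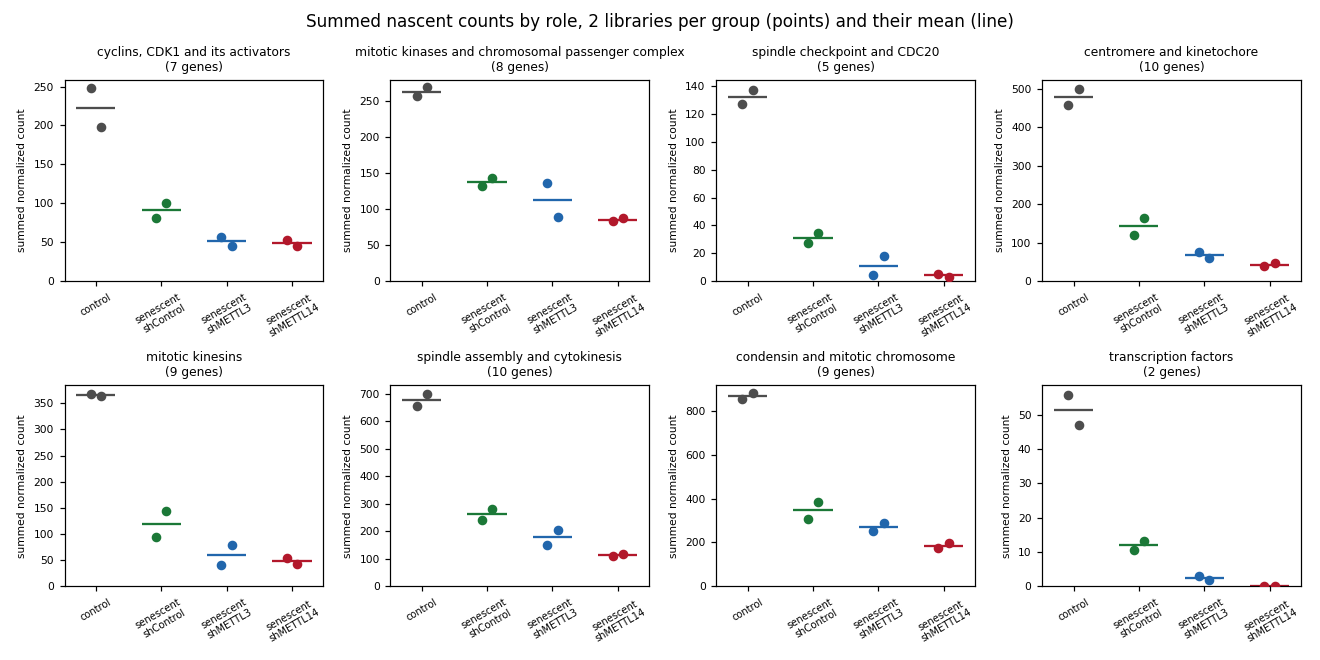
The summed normalized count of each role is plotted for every library (points) with the group mean (line), 2 libraries per group. In all 8 roles both control libraries lie above every senescent library.

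The 8 libraries were fitted together by the quasi-likelihood method of edgeR over 12844 genes that passed a count filter, and calls were made where the p-value adjusted over all of them was below 0.05. AURKB, CENPA and SPC25 had too few counts to be tested, and their highest counts in any library were 11, 10 and 8. In 31 of the 57 tested, control was the only group with both libraries over the cutoff of the filter on low counts. Of these, MAD2L1 and KIF14 had 4 libraries over it. Such a filter favors genes that are lower in the senescent groups, so counts over the tested genes describe them without supporting a trend. The 8 that passed in every group were CCNF, CDC25B, AURKA, CIT, ECT2, SMC2, SMC4 and NCAPD2.

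In senescent shControl against control cells, 42 of the 60 genes were lower and 0 higher, where 13.3% of all tested genes were lower and 13.3% higher. None of the 57 was higher at an unadjusted p below 0.05 either, by edgeR or by DESeq2. The median log2 fold change was -1.67 over the 57 genes and -0.03 over all tested genes. DESeq2 called 24 lower, where it called 7.07% of all tested genes lower. Leaving out control replicate 1 left 23 calls, and leaving out shControl replicate 1 left 22. Between the same groups 5 of the 7 fibroblast markers were also lower and 1 higher, and their part in the result was not tested.

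Against senescent shControl cells, 24 of the 60 genes were lower and 0 higher under shMETTL3, where 11.2% of all tested genes were lower and 12.3% higher. At an unadjusted p below 0.05 only CIT was higher by edgeR, and no gene by DESeq2. The median log2 fold change was -1.30, or -1.28 with the 6 genes that had no count under shMETTL3 set at their bound (3 counts over the group). With shMETTL14, 25 were lower and 0 higher, where 12% of all tested genes were lower and 9.15% higher, with a median of -1.65, or -1.54 with 5 genes at their bound. None of the 57 was higher under shMETTL14 at an unadjusted p below 0.05 by edgeR or DESeq2. These comparisons share the shControl libraries. Of the 7 fibroblast markers, 1 was lower and 1 higher under shMETTL3 and 6 were lower under shMETTL14, and their part in the result was not tested.

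Both knockdown counts rest on few reads, with a median count over the 60 genes of 7.5 and 11.5 in the shControl libraries and 3 to 6 in the knockdown libraries. With shMETTL3, DESeq2 called 8 of the 57 lower, against 5.66% of all tested genes. It gave no adjusted p to 15 of the 57, and genes without one count as not called in both shares. By edgeR fewer were called without shControl replicate 2 or shMETTL3 replicate 2, fits that leave 1 library in a group. With shMETTL14, DESeq2 called 13 of the 57 lower, against 7.4% of all tested genes, again with 15 of the 57 lacking an adjusted p. By edgeR fewer were called without either shControl or either shMETTL14 library. Scaling by library size alone moved the median log2 fold change of all genes to 0.58 under shMETTL3 and 0.35 under shMETTL14. On that scale 12 genes were lower and 3 (ECT2, CIT and NCAPD2) higher under shMETTL3, where 2.75% of all tested genes were lower and 41.2% higher. Under shMETTL14, 21 were lower and 0 higher on that scale, against 5.52% and 24.6% of all tested genes.

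Many calls were lost when a library was left out. Such a loss need not mean that a call rested on that library, since the fit also has fewer libraries. The CDCA8 call under shMETTL14 was lost without control replicate 1, a library outside that comparison, at log2 -3.20 in both fits. With each of the 8 libraries left out in turn, 19 of the 42 senescence calls stood every time (ANLN, ASPM, BUB1B, CENPE, CENPF, CENPK, FOXM1, KIF4A, KIF11, KIF18A, MKI67, NCAPG2, NUSAP1, PRC1, SMC4, TACC3, TOP2A, TPX2 and TTK). Of the 24 calls under shMETTL3, 5 stood every time (BIRC5, KNL1, MKI67, TOP2A and TPX2), and of the 25 under shMETTL14, 6 did (ANLN, ASPM, CENPF, MKI67, SMC4 and TOP2A). In each comparison the other calls were lost without at least 1 library. Over all tested genes these fits called 5.59% to 15.9% lower in senescence, 5.3% to 15.1% under shMETTL3 and 5.76% to 14.3% under shMETTL14.

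The 15 tested genes not called in senescence were AURKA, CCNA2, CCNF, CDC25C, CDCA8, ECT2, ERCC6L, HMMR, INCENP, KIF20B, KIF23, MAD2L1, NCAPD2, NUF2 and PLK4. The 24 called lower under shMETTL3 were ANLN, ASPM, AURKA, BIRC5, CDC20, CDC25B, CDCA8, CDK1, CENPE, CENPI, FOXM1, HMMR, INCENP, KIF20A, KIF20B, KIF23, KNL1, MKI67, NCAPG, NCAPG2, NUF2, PLK4, TOP2A and TPX2. The 25 called lower under shMETTL14 were ANLN, ASPM, BIRC5, BUB1B, CCNA2, CDCA8, CENPE, CENPF, CENPI, DLGAP5, ECT2, FOXM1, HMMR, KIF14, KIF23, KNL1, MKI67, MYBL2, NCAPG, NDC80, NUF2, PLK4, SMC4, TOP2A and TPX2. All 3 comparisons hold the shControl libraries, so calls that the lists share are not independent.

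Among the cyclins and CDK1 activators, 4 of 7 were lower in senescence (CCNB1, CCNB2, CDK1 and CDC25B), 2 under shMETTL3 and 1 under shMETTL14. Of all tested genes 13.3%, 11.2% and 12% were lower in these comparisons, so the 1 of 7 under shMETTL14 is near the background. CDK1 (chr10:62538212-62554610), the kinase that drives entry into mitosis, had 26 and 28 counts in control cells, 1 and 5 under shControl, 0 and 0 under shMETTL3 and 0 and 1 under shMETTL14. It was 6.89-fold lower in senescence (log2 -2.74, SE 0.64, adjusted p = 0.00189) and at least 2.33-fold lower again under shMETTL3 (adjusted p = 0.0483). That second call was lost in 10 of 14 alternatives, with an adjusted p of up to 0.420 without shControl replicate 2, which held 5 of the 6 shControl counts. The senescence call was lost without shControl replicate 1 (adjusted p = 0.0936). CCNB1, the cyclin partner of CDK1, had 49 and 44 counts in control cells, 14 and 16 under shControl, 8 and 7 under shMETTL3 and 8 and 6 under shMETTL14. It fell 2.37-fold in senescence (log2 -1.24, SE 0.36, adjusted p = 0.00961), and its further differences of -1.20 under shMETTL3 and -1.25 under shMETTL14 did not pass the test (adjusted p = 0.0661 and 0.0636). The senescence call was lost with DESeq2 and without control replicate 1 or either shControl library (adjusted p of up to 0.0990). All 4 knockdown libraries of CCNB1 lay below both shControl libraries.

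CCNA2, the cyclin of S phase and G2, had 23 and 14 counts in control cells, 6 and 10 under shControl, 3 and 5 under shMETTL3 and 0 and 2 under shMETTL14. The groups followed each other without overlap, but of the 3 comparisons only shMETTL14 against shControl passed the test, at an 8.94-fold lower level with a 95% exact counting interval (counting error only) of 2.10 to 80.2 (log2 -3.01, SE 0.94, adjusted p = 0.0228). That call was lost without either shControl library or shMETTL14 replicate 1 (adjusted p of up to 0.270). EXOSC9 on the opposite strand overlaps 7.65% of it. CCNB2, the other mitotic B-type cyclin, had 28 and 24 counts in control cells, 3 and 7 under shControl, 9 and 12 under shMETTL3 and 3 and 2 under shMETTL14. It fell in senescence (log2 -1.97, SE 0.53, adjusted p = 0.00573), and both shMETTL3 libraries lay above both shControl libraries without passing the test (log2 0.84, SE 0.60, adjusted p = 0.341). CDC25B, a phosphatase that activates CDK1, fell in senescence (log2 -1.37, SE 0.30, adjusted p = 0.000914) and under shMETTL3 (log2 -1.21, SE 0.40, adjusted p = 0.028). CCNF, the substrate receptor of an SCF ubiquitin ligase, and CDC25C, another CDK1-activating phosphatase, were called in none of these comparisons. CCNF had 22 and 31 counts in control cells, 13 and 16 under shControl, 15 and 10 under shMETTL3 and 11 and 10 under shMETTL14, and CDC25C had 20 and 22 counts in control cells, 6 and 10 under shControl, 6 and 2 under shMETTL3 and 5 and 1 under shMETTL14.

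Among the 7 tested mitotic kinases and passenger proteins, PLK1, BIRC5 and CIT were lower in senescence, 5 were lower under shMETTL3 and 3 under shMETTL14. The shares lower over all tested genes were 13.3%, 11.2% and 12%. CDCA8 (borealin), a subunit of the chromosomal passenger complex, had 19 and 18 counts in control cells, 4 and 6 under shControl, 0 and 0 under shMETTL3 and 1 and 0 under shMETTL14. It was at least 3.88-fold lower under shMETTL3 than under shControl (adjusted p = 0.0104) and 11.2-fold lower under shMETTL14, with a counting interval of 1.59 to 485 (adjusted p = 0.0479). The shMETTL14 call was lost in 10 of 14 alternatives (adjusted p of up to 0.280), among them leaving out any control, shControl or shMETTL14 library, and the shMETTL3 call without shControl replicate 2 (adjusted p = 0.0936) or shMETTL3 replicate 2 (adjusted p = 0.0572). BIRC5 (survivin), another subunit of that complex, had 39 and 22 counts in control cells, 7 and 9 under shControl, 0 and 0 under shMETTL3 and 1 and 0 under shMETTL14. From shControl it was at least 6.20-fold lower under shMETTL3 (adjusted p = 0.00201) and 17.9-fold lower under shMETTL14, with a counting interval of 2.78 to 750.1 (adjusted p = 0.00917). PLK4, the kinase that starts centriole duplication, had 5 and 8 counts under shControl and 0 in all 4 knockdown libraries. It was at least 5.04-fold lower under shMETTL3 (adjusted p = 0.00428) and at least 4.84-fold lower under shMETTL14 (adjusted p = 0.00516).

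INCENP, the scaffold of the passenger complex, differed between the knockdowns. It had 48 and 65 counts in control cells, 20 and 27 under shControl, 15 and 6 under shMETTL3 and 36 and 20 under shMETTL14. It was lower under shMETTL3 than under shControl (log2 -1.36, SE 0.45, adjusted p = 0.0272), and the call was lost without shMETTL3 replicate 2 (log2 -0.82, adjusted p = 0.236) or either shControl library. With shMETTL14 the difference from shControl was 0.09 (SE 0.38, adjusted p = 0.901) and the libraries overlapped. AURKA, a centrosomal kinase, was lower under shMETTL3 (log2 -1.28, SE 0.42, adjusted p = 0.0281) and was not called under shMETTL14 (log2 -0.79, SE 0.40, adjusted p = 0.166). PLK1, the kinase that promotes mitotic entry and spindle assembly, had 23 and 18 counts in control cells, 4 and 5 under shControl, 3 and 1 under shMETTL3 and 4 and 3 under shMETTL14, and its senescence difference passed the test (log2 -1.78, SE 0.58, adjusted p = 0.0223).

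Of the spindle checkpoint genes, BUB1, BUB1B, TTK and CDC20 were lower in senescence, and the 5 genes together held normalized sums of 128 and 138 in control libraries, 27.2 and 34.5 under shControl, 4.10 and 18.0 under shMETTL3 and 5.0 and 3.16 under shMETTL14. TTK (MPS1), the kinase that starts checkpoint signaling, had the largest fitted fall of the 57 in senescence, from 22 and 29 counts to 1 and 2, a 13-fold lower level with a counting interval of 4.21 to 65.2 (adjusted p = 0.000594). CDC20, the activator of the anaphase-promoting complex, had 30 and 20 counts in control cells, 8 and 3 under shControl, 0 and 0 under shMETTL3 and 1 and 1 under shMETTL14. It was at least 4.26-fold lower under shMETTL3 than under shControl (adjusted p = 0.00834). BUB1B was lower under shMETTL14 (8.94-fold, counting interval 2.10 to 80.2, adjusted p = 0.0195), with 9 and 7 counts against 2 and 0. MAD2L1, the checkpoint protein that holds CDC20 inactive, had 12 and 29 counts in control cells, 4 and 14 under shControl, 2 and 10 under shMETTL3 and 2 and 2 under shMETTL14, and the spread within each senescent pair except shMETTL14 was wide. It was the 1 gene of the 5 called in none of the 3 comparisons.

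Of the 10 centromere and kinetochore genes, 6 were lower in senescence, 4 under shMETTL3 and 6 under shMETTL14. The shares lower over all tested genes were 13.3%, 11.2% and 12%. CENPE, the kinesin that carries chromosomes to the spindle equator, had 84 and 98 counts in control cells, 11 and 28 under shControl, 8 and 6 under shMETTL3 and 5 and 2 under shMETTL14. It fell 3.57-fold in senescence (log2 -1.84, SE 0.33, adjusted p = 9.54e-05), a further 3.24-fold under shMETTL3 (log2 -1.67, SE 0.49, adjusted p = 0.0137) and 6.23-fold under shMETTL14 (log2 -2.59, SE 0.56, adjusted p = 0.00133). The shControl libraries differed from each other and both lay above all 4 knockdown libraries. The shMETTL3 call was lost in 4 of 15 alternatives, with log2 values from -2.16 to -0.91 and an adjusted p of 0.389 without shControl replicate 2, 0.0741 without shMETTL3 replicate 2 and 0.0624 with library size alone. The shMETTL14 call was lost without shControl replicate 2 (adjusted p = 0.09999).

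CENPF, a large protein of the outer kinetochore, had 208 and 223 counts in control cells, 26 and 55 under shControl, 40 and 35 under shMETTL3 and 8 and 10 under shMETTL14. The shMETTL3 libraries lay within the range of shControl (log2 -0.32, SE 0.28, adjusted p = 0.451, or 0.28 when scaled by library size alone), while shMETTL14 was 5.03-fold lower (log2 -2.31, SE 0.38, adjusted p = 4.77e-05). KNL1, the platform that binds checkpoint proteins at the kinetochore, had 47 and 44 counts in control cells, 19 and 7 under shControl, 0 and 1 under shMETTL3 and 2 and 2 under shMETTL14, and was called lower in all 3 comparisons. NUF2 and NDC80, partners in the complex that grips microtubules, had at most 4 counts in any knockdown library. NUF2 had 11 and 21 counts in control cells, 3 and 9 under shControl, 0 and 0 under shMETTL3 and 1 and 0 under shMETTL14, and NDC80 had 27 and 27 counts in control cells, 3 and 5 under shControl, 0 and 4 under shMETTL3 and 0 and 0 under shMETTL14. CENPI and CENPK belong to the inner centromere network. CENPI fell in senescence (log2 -1.31, SE 0.34, adjusted p = 0.00483) and with each knockdown (log2 -1.63, SE 0.48, adjusted p = 0.0148, and log2 -1.94, SE 0.51, adjusted p = 0.0067), whereas CENPK was called in senescence (log2 -1.53, SE 0.35, adjusted p = 0.00148) and not with either knockdown. ERCC6L (PICH), a DNA translocase on ultrafine anaphase bridges, had 24 and 22 counts in control cells, 8 and 7 under shControl, 7 and 1 under shMETTL3 and 6 and 10 under shMETTL14. It passed none of these tests (adjusted p = 0.095, 0.293 and 0.96), and the whole gene lies inside PIN4 on the opposite strand, whose reads it shares.

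Of the 9 mitotic kinesins, 7 were lower in senescence, 3 under shMETTL3 and 2 under shMETTL14. The shares lower over all tested genes were 13.3%, 11.2% and 12%, and with 9 genes the 2 under shMETTL14 are not far from that share. KIF4A, which compacts chromosome arms and shapes the central spindle, had the largest fitted fall of them, from 50 and 59 counts to 2 and 8 (8.35-fold, log2 -3.04, SE 0.48, adjusted p = 1.65e-05), and held 3 and 3 under shMETTL3 and 1 and 3 under shMETTL14. KIF11, which pushes spindle poles apart, fell from 75 and 68 to 7 and 18 (log2 -2.13, SE 0.37, adjusted p = 6.83e-05). KIF18A, which shortens kinetochore microtubules, had 49 and 72 counts in control cells, 12 and 17 under shControl, 9 and 26 under shMETTL3 and 7 and 4 under shMETTL14. Its shMETTL3 libraries spanned the shControl range. KIF14, which works with CIT in cytokinesis, had 47 and 28 counts in control cells, 7 and 13 under shControl, 6 and 12 under shMETTL3 and 2 and 2 under shMETTL14, and was called in senescence (log2 -1.52, SE 0.45, adjusted p = 0.0122) and under shMETTL14 (log2 -2.41, SE 0.75, adjusted p = 0.0211). KIF2C (MCAK), a microtubule depolymerase, fell in senescence (log2 -2.75, SE 0.68, adjusted p = 0.00296) to 1 and 5 counts and was called with neither knockdown. KIF15 and KIF20A, which act on spindle length and at the midzone, also fell in senescence (log2 -2.08, SE 0.59, adjusted p = 0.0088, and log2 -1.85, SE 0.55, adjusted p = 0.0122). KIF20B, another cytokinesis kinesin, was called under shMETTL3 only among these comparisons (log2 -1.24, SE 0.41, adjusted p = 0.0293), with 18 and 25 counts under shControl against 8 and 13. KIF23, a kinesin of the cytokinesis midzone, was not called in senescence (log2 -0.64, SE 0.32, adjusted p = 0.152) but fell under shMETTL3 (log2 -1.45, SE 0.41, adjusted p = 0.0114) and shMETTL14 (log2 -1.10, SE 0.40, adjusted p = 0.0489).

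Of the 10 spindle assembly and cytokinesis genes, 8 were lower in senescence, 4 under shMETTL3 and 6 under shMETTL14. The shares lower over all tested genes were 13.3%, 11.2% and 12%. ASPM, a spindle pole protein, had 125 and 143 counts in control cells, 16 and 24 under shControl, 2 and 8 under shMETTL3 and 5 and 1 under shMETTL14. It fell 5.13-fold in senescence (log2 -2.35, SE 0.30, adjusted p = 7.66e-07), 4.65-fold under shMETTL3 (log2 -2.19, SE 0.51, adjusted p = 0.00238) and 7.45-fold under shMETTL14 (log2 -2.85, SE 0.57, adjusted p = 0.00056). ANLN (anillin), which anchors the contractile ring, had 183 and 212 counts in control cells, 22 and 44 under shControl, 7 and 24 under shMETTL3 and 8 and 5 under shMETTL14. ANLN was called in senescence (log2 -2.20, SE 0.27, adjusted p = 3.28e-07), under shMETTL3 (log2 -1.30, SE 0.39, adjusted p = 0.0152) and under shMETTL14 (log2 -2.48, SE 0.46, adjusted p = 0.000269), although its raw count in shMETTL3 replicate 2 exceeded that in shControl replicate 1. The shMETTL3 call of ANLN was lost in 4 of 16 alternatives, with log2 values from -2.39 to -0.69 and an adjusted p of 0.345 without shControl replicate 2, 0.129 without shMETTL3 replicate 1 and 0.131 with library size alone. NUSAP1, a microtubule bundling protein, fell 9.57-fold in senescence (log2 -3.21, SE 0.58, adjusted p = 0.000116) and had 2 and 4 counts under shControl, 3 and 0 under shMETTL3 and 5 and 6 under shMETTL14. TPX2, which activates AURKA on the spindle, was lower in all 3 comparisons, at log2 -1.42 in senescence, -1.79 under shMETTL3 and -1.47 under shMETTL14. HMMR, a spindle-associated hyaluronan receptor, was not called in senescence (log2 -0.52, SE 0.59, adjusted p = 0.564) and had 4 and 12 counts under shControl, 2 and 0 under shMETTL3 and 2 and 1 under shMETTL14, lower by the test with each knockdown (adjusted p = 0.0223, and adjusted p = 0.049).

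PRC1, which bundles the midzone microtubules, had 55 and 61 counts in control cells, 9 and 14 under shControl, 7 and 5 under shMETTL3 and 5 and 6 under shMETTL14, with a call in senescence (log2 -1.94, SE 0.37, adjusted p = 0.000181) and none with the knockdowns. TACC3, a spindle microtubule cross-linker, had 50 and 43 counts in control cells, 7 and 10 under shControl, 2 and 7 under shMETTL3 and 11 and 12 under shMETTL14, and shMETTL14 did not differ from shControl by the test (log2 0.27, SE 0.52, adjusted p = 0.758).

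Of the 9 condensin and mitotic chromosome genes, 8 were lower in senescence and 4 with each knockdown. The shares lower over all tested genes were 13.3% in senescence, 11.2% under shMETTL3 and 12% under shMETTL14. MKI67 (chr10:129894925-129924468), which encodes the proliferation marker Ki-67, had 224 and 201 counts in control cells, 25 and 53 under shControl, 1 and 0 under shMETTL3 and 1 and 3 under shMETTL14. It fell 4.17-fold in senescence (log2 -2.06, SE 0.24, adjusted p = 2.02e-07). From there it was 90.7-fold lower under shMETTL3, with a counting interval of 15.8 to 3627 (log2 -6.18, SE 0.68, adjusted p = 1.77e-07), and 21.8-fold lower under shMETTL14 (log2 -4.36, SE 0.54, adjusted p = 9.36e-07). TOP2A (chr17:38544773-38574202), the topoisomerase that untangles sister chromatids, had 164 and 145 counts in control cells, 23 and 26 under shControl, 3 and 0 under shMETTL3 and 1 and 3 under shMETTL14. It fell 4.83-fold in senescence (log2 -2.27, SE 0.28, adjusted p = 3.2e-07), 19.0-fold under shMETTL3 with a counting interval of 6.13 to 95.2 (adjusted p = 1.31e-05) and 13.7-fold under shMETTL14 (log2 -3.70, SE 0.58, adjusted p = 2.8e-05). The size of these falls depended on single libraries. Over the alternatives, the log2 value of MKI67 ranged from -8.50 to -5.30 under shMETTL3 and from -5.32 to -3.78 under shMETTL14, and that of TOP2A from -7.83 to -3.16 and from -4.65 to -3.12. The lowest values under shMETTL3 came without shMETTL3 replicate 1, where the library that remained had no count and the fitted value is no bound, and the highest without shMETTL3 replicate 2. Under shMETTL14 the lowest came without shMETTL14 replicate 2, and the highest without shControl replicate 2 for MKI67 and without shMETTL14 replicate 1 for TOP2A. In both genes the control, shControl and knockdown libraries formed 3 separate levels, and the knockdowns did not differ from each other by the test (adjusted p = 0.317 for MKI67 and 0.780 for TOP2A).

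Per kilobase of gene body, MKI67 was the most transcribed of the 60 in control cells, at 6.32 normalized counts per kilobase, and fell to 0.0174 under shMETTL3. SMC2, an ATPase subunit of condensin, had 59 and 74 counts in control cells, 17 and 26 under shControl, 21 and 36 under shMETTL3 and 18 and 15 under shMETTL14. It fell 2.37-fold in senescence (log2 -1.24, SE 0.31, adjusted p = 0.00338), a call lost without control replicate 2 (adjusted p = 0.0545) or shControl replicate 1 (adjusted p = 0.0891). The knockdowns differed from shControl by 0.19 (SE 0.35, adjusted p = 0.749) and -0.54 (SE 0.38, adjusted p = 0.348). Its condensin partner SMC4 had 148 and 185 counts in control cells, 36 and 49 under shControl, 26 and 41 under shMETTL3 and 12 and 18 under shMETTL14, and was lower in senescence (log2 -1.58, SE 0.23, adjusted p = 4.38e-06) and again under shMETTL14 (log2 -1.65, SE 0.33, adjusted p = 0.000489), but was not called under shMETTL3 (log2 -0.56, SE 0.28, adjusted p = 0.155). SMC4 lies wholly inside TRIM59-IFT80 on the opposite strand. NCAPG, a subunit of condensin I, was called in senescence (log2 -1.22, SE 0.34, adjusted p = 0.0086), under shMETTL3 (log2 -1.35, SE 0.46, adjusted p = 0.0339) and under shMETTL14 (log2 -1.87, SE 0.50, adjusted p = 0.00787). NCAPH, the kleisin of condensin I, fell from 22 and 20 counts to 2 and 3 in senescence (log2 -2.63, SE 0.67, adjusted p = 0.00395) and held at most 2 in any knockdown library. CDCA2 (Repo-Man), which brings protein phosphatase 1 to chromatin, fell in senescence (log2 -1.26, SE 0.43, adjusted p = 0.0308) and had 8 and 12 counts under shControl, 8 and 6 under shMETTL3 and 18 and 10 under shMETTL14.

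The transcription factors FOXM1 and MYBL2 (B-MYB), which drive many of these genes, were lower in senescence. FOXM1 had 34 and 35 counts in control cells, 6 and 6 under shControl, 2 and 0 under shMETTL3 and 0 and 0 under shMETTL14. It was 4.40-fold lower in senescence (adjusted p = 0.0028), 6.98-fold lower under shMETTL3 than under shControl, with a counting interval of 1.55 to 64.2 (adjusted p = 0.0458), and at least 4.47-fold lower under shMETTL14 (adjusted p = 0.00621). The call under shMETTL3 was lost in 11 of 15 alternatives (adjusted p 0.0140 to 0.263), and that under shMETTL14 without shMETTL14 replicate 1 (adjusted p = 0.0703). MYBL2 had 29 and 19 counts in control cells, 3 and 6 under shControl, 1 and 2 under shMETTL3 and 0 and 0 under shMETTL14. It was at least 3.35-fold lower under shMETTL14 (adjusted p = 0.0167), and 3.49-fold lower under shMETTL3 with a counting interval of 0.870 to 20.03 (adjusted p = 0.201). The senescence call of MYBL2 (log2 -2.01, SE 0.58, adjusted p = 0.011) was lost in 5 of 16 alternatives (adjusted p of up to 0.206), among them DESeq2 and leaving out control replicate 1 or either shControl library. Its shMETTL14 call was lost in 4 of 14 (adjusted p of up to 0.146), among them leaving out shControl replicate 2 or either shMETTL14 library.

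**Figure D3:**
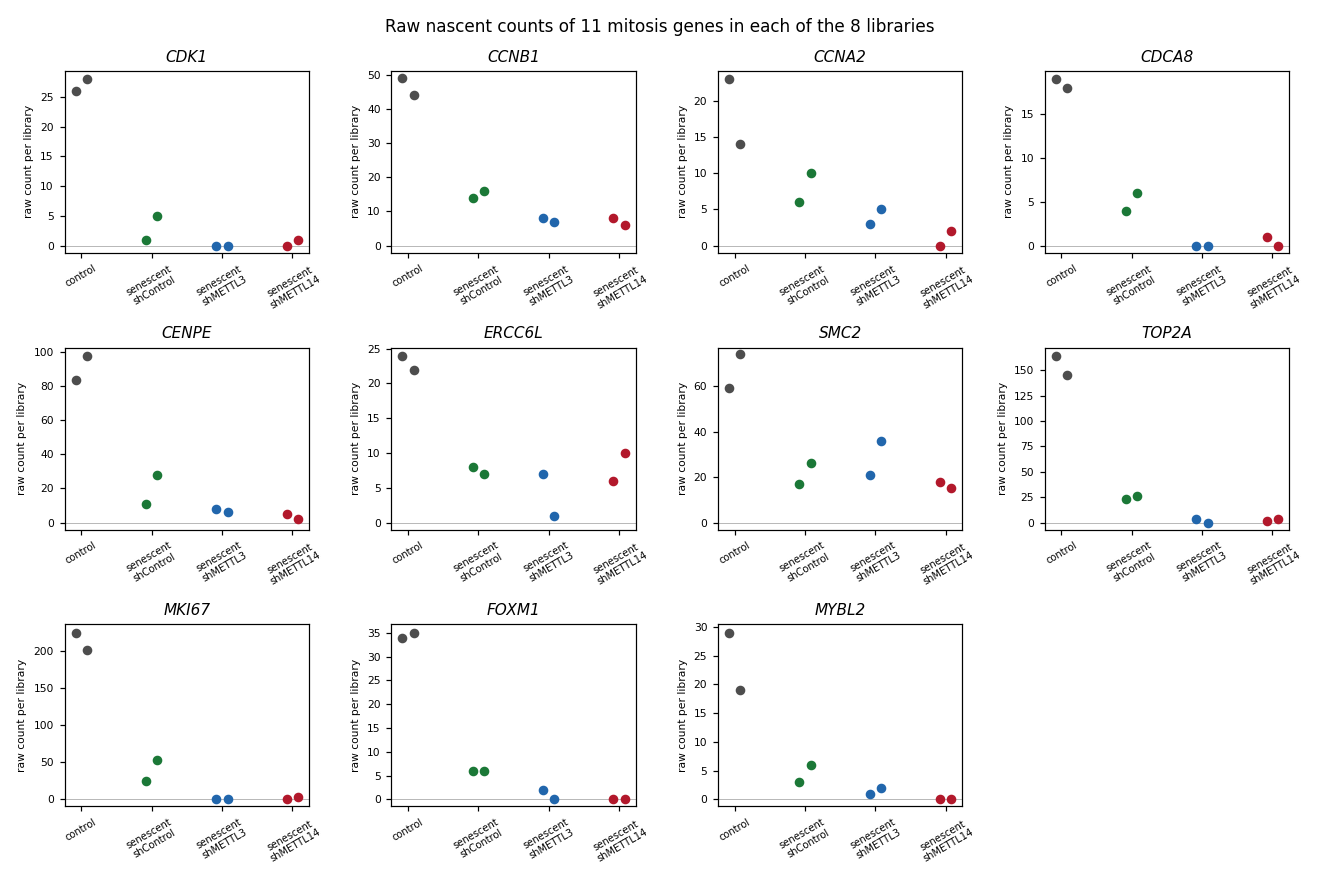
Raw counts of 11 genes are plotted for each of the 8 libraries, with groups on the horizontal axis and a separate vertical scale per gene. MKI67 and TOP2A drop from over 140 counts in control cells to at most 3 in every knockdown library, whereas SMC2 has 15 to 36 counts in the knockdown libraries against 17 and 26 under shControl, and ERCC6L has 1 to 10 against 8 and 7.

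ECT2, CIT and NCAPD2 were the members closest to their control level under shMETTL3, at 127%, 95.4% and 105% of it. ECT2 (chr3:172468475-172539264), the exchange factor that activates RhoA at the cleavage furrow, had 115 and 122 counts in control cells, 110 and 93 under shControl, 114 and 155 under shMETTL3 and 61 and 69 under shMETTL14. It was not called in senescence or under shMETTL3 (log2 0.16, SE 0.19 in senescence and 0.18, SE 0.19 under shMETTL3), while under shMETTL14 it was 1.75-fold lower than under shControl (log2 -0.80, SE 0.20, adjusted p = 0.00544). That call was lost without shControl replicate 1 (adjusted p = 0.116) or shMETTL14 replicate 1 (adjusted p = 0.0893). With library size alone the senescence difference of ECT2 was -0.34, against a median of -0.53 over all genes. CIT, the citron kinase of the midbody, had 91 and 111 counts in control cells, 48 and 47 under shControl, 100 and 70 under shMETTL3 and 26 and 45 under shMETTL14. It was lower in senescence (log2 -0.70, SE 0.25, adjusted p = 0.0386) and not called against shControl with either knockdown (log2 0.63, adjusted p = 0.0778, and -0.58, adjusted p = 0.168). Its senescence call was lost in 6 of 17 alternatives (log2 up to -0.56, adjusted p of up to 0.241), among them DESeq2 and leaving out any control or shControl library.

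NCAPD2, the HEAT-repeat subunit of condensin I, had 198 and 201 counts in control cells, 124 and 132 under shControl, 173 and 200 under shMETTL3 and 103 and 124 under shMETTL14, and was the most counted of the 60 genes in every senescent library. The small Cajal body RNA gene SCARNA10 (chr12:6619388-6619717) lies inside it on the same strand and takes up 0.872% of its length. SCARNA10 alone had 110 and 105 counts in control cells, 95 and 93 under shControl, 142 and 180 under shMETTL3 and 78 and 102 under shMETTL14. Without these reads, a correction chosen after the values were seen, NCAPD2 had 88 and 96, then 29 and 39, 31 and 20, and 25 and 22 counts. The corrected counts fell in senescence (log2 -1.05, SE 0.26, adjusted p = 0.00318), where the uncorrected difference was -0.26 (SE 0.16, adjusted p = 0.261). Against shControl the corrected differences were -0.62 under shMETTL3 (SE 0.31, adjusted p = 0.154) and -0.69 under shMETTL14 (SE 0.32, adjusted p = 0.125).

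**Figure D4:**
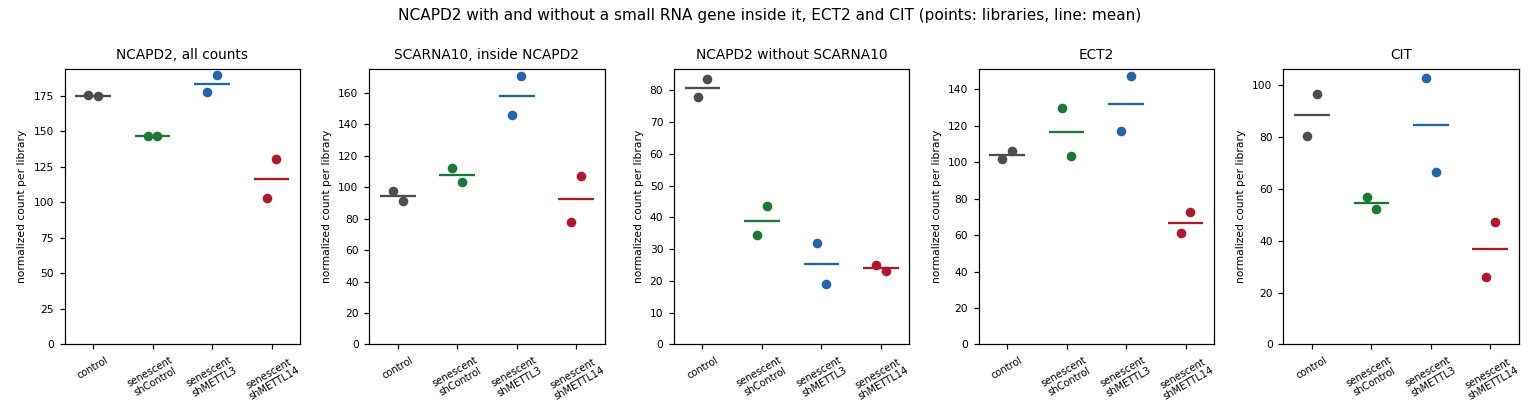
Normalized counts per library (points) and group means (lines) are plotted for NCAPD2, for SCARNA10 inside it, for NCAPD2 without SCARNA10, and for ECT2 and CIT. SCARNA10 holds most of the NCAPD2 counts in every panel column, and without it all 6 senescent libraries lie below 50 normalized counts while both control libraries lie above 70.

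Set directly against each other, the knockdowns differed in 9 of the 60 genes, 8 lower and 1 higher under shMETTL14, where 18.7% of all tested genes were lower and 16.5% higher. The median log2 difference over the 57 was -0.07. At an unadjusted p below 0.05, 10 were lower and CDC25B, INCENP and TACC3 were higher, and 5 of the 7 fibroblast markers were lower and 1 higher. CENPF was 4.01-fold lower under shMETTL14 than under shMETTL3 (log2 -1.99, SE 0.38, adjusted p = 0.000201), KIF18A 3.06-fold lower (log2 -1.59, SE 0.55, adjusted p = 0.026) and CIT 2.30-fold lower (log2 -1.20, SE 0.27, adjusted p = 0.000946). INCENP was the gene that was higher (log2 1.45, SE 0.43, adjusted p = 0.0104). The other 5 lower genes were KIF14, CCNB2, SMC4, ECT2 and NCAPD2, and the NCAPD2 difference of -0.66 became -0.07 (adjusted p = 0.898) without SCARNA10. DESeq2 called 5 lower and 1 higher, where it called 13.3% of all tested genes lower. By edgeR fewer were lower without either shMETTL14 library or without shMETTL3 replicate 2, as were fewer of all tested genes. Each of these fits leaves 1 library in a group. The KIF18A call was lost without shMETTL3 replicate 2 (adjusted p = 0.502) or either shMETTL14 library, and the INCENP call without that library (adjusted p = 0.133) or shMETTL14 replicate 1 (adjusted p = 0.223).

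**Figure D5:**
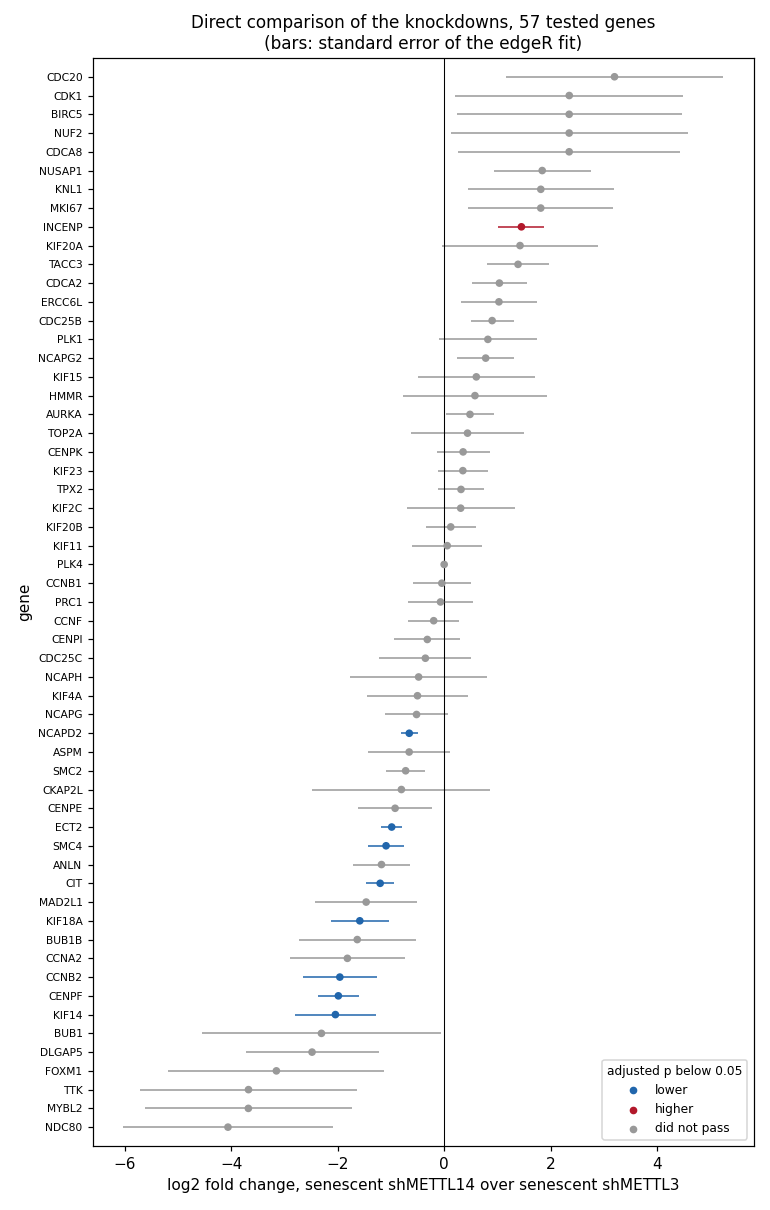
The log2 fold change of senescent shMETTL14 over senescent shMETTL3 is plotted for the 57 tested genes, sorted, with bars for the standard error (none could be given for PLK4, which had 0 counts in all 4 libraries). The 8 genes that were lower and INCENP, which was higher, are colored, and the genes at both ends, which had few counts in both groups, have wide bars.

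Against control cells, 53 of the 60 genes were lower and 0 higher under shMETTL3, where 20.1% of all tested genes were lower and 20.1% higher, and 54 lower and 0 higher under shMETTL14, where 20.5% were lower and 19.7% higher. No gene of the 57 was higher in either at an unadjusted p below 0.05 by edgeR or DESeq2. DESeq2 called 49 and 52 lower, where it called 12.3% and 14.3% of all tested genes lower. Of the 7 fibroblast markers, 5 were lower and 1 higher in each of these comparisons (median log2 -1.27 and -2.05), and their part in the result was not tested. The median log2 fold changes were -3.21 and -3.24, the same with 6 genes each at their bound. The tested genes not called under shMETTL3 were CCNF, CIT, ECT2 and NCAPD2, and those not called under shMETTL14 were INCENP, ERCC6L and CDCA2. Without SCARNA10, NCAPD2 was lower than in control cells under shMETTL3 (log2 -1.67, SE 0.27, adjusted p = 1.64e-05) and shMETTL14 (log2 -1.74, SE 0.28, adjusted p = 1.22e-05).

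Read sharing with other genes touched 20 of the 60, and 10 of them over more than 5% of their length. Besides ERCC6L and SMC4, PRC1 shares 77.8% of its length with PRC1-AS1, HMMR 29.7% with HMMR-AS1 and CKAP2L 23.0% with NT5DC4. These neighbors are on the opposite strand, and the share of reads can exceed the share of length. Mean counts per library were 20.25 for PRC1 and 17.875 for PRC1-AS1, and 6.375 for HMMR and 2.75 for HMMR-AS1. HMMR-AS1 had 0 and 8 counts in the shControl libraries. Reads of both strands appear to enter each count, since among 61 pairs of a gene lying wholly inside another on the opposite strand (mean count of at least 100) the outer gene fell below the inner one in any library in only 1 pair.

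Related genes outside the 60 were taken from 4 further lists. Of 65 other mitosis genes 55 were tested, of which 21 were lower and 0 higher in senescence, 8 lower and 2 higher under shMETTL3, and 11 lower and 3 higher under shMETTL14. Over all tested genes the shares lower were 13.3%, 11.2% and 12%, and the shares higher 13.3%, 12.3% and 9.15%, so the counts under shMETTL3 were near the background or below it. SKA3 and FAM83D, a kinetochore and a spindle protein, fell most in senescence (log2 -3.69 and -3.04). WEE1, the kinase that holds CDK1 inactive, was among those higher under shMETTL3 than under shControl (log2 1.72, SE 0.28, adjusted p = 4.17e-05). Of the 16 genes of the anaphase-promoting complex and its regulators, all tested, none was called in senescence by edgeR, and none reached an unadjusted p below 0.05. ANAPC10 was higher with both knockdowns (log2 0.58 and 0.89), and CDC23 was lower under shMETTL3 (log2 -1.05). Of 14 tested DREAM, MuvB and RB family genes, 2 were lower in senescence, a share near the 13.3% of all tested genes. MYBL1 fell in all 3 comparisons (log2 -1.57, -0.99 and -1.52). Of 11 cohesin and SMC5/6 genes, 2 were lower and 1 higher in senescence, again near the 13.3% in each direction, and 4 were higher under shMETTL3, against 12.3% of all tested genes. SMC3 was lower in senescence (log2 -0.63) and under shMETTL14 (log2 -0.88).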

How the data were processed

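FastGRO-seq was analysed in 8 libraries, 2 per group, grouped by their labels. The deposited values are raw read counts that the authors made by aligning reads with STAR to hg19 and counting over gene bodies with HOMER (analyzeRepeats, reads condensed to 1 entry per gene). A Drosophila spike-in was used for the study's tracks and not here. Counts were analysed with edgeR 4.0.16 in R 4.3.3: genes passed filterByExpr (minimum count 10), libraries were scaled by TMM, and 1 quasi-likelihood fit over the 4 groups gave 6 comparisons, with Benjamini-Hochberg adjustment over 12844 of 27945 genes and a threshold of 0.05. Standard errors are the log2 fold change over the root of its F statistic. The fit was tested on simulated counts. Folds are ratios of summed counts over summed TMM-scaled library sizes. Folds against a group at 0 are bounds at 3 counts over the group, and folds against 1 to 3 counts carry an exact 95% interval for counting error only.

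Any of the 60 genes could be named by role. The rule for full values took CCNA2, CDCA8, CENPE, ERCC6L, SMC2, MKI67, TOP2A, CDK1, CCNB1, FOXM1 and MYBL2, plus, per comparison, the top 3 called genes by fold in either direction (average count 20 or more), and for other lists the top 2 per direction. Other genes given with values were picked after these were seen. The genes, roles and other lists were chosen with earlier results of these data known. Alternatives were DESeq2 1.42.0, other scalings and filters, a stricter threshold, only the groups compared, a replicate block, no ribosomal RNA rows and leaving out each library. Taking SCARNA10 reads off NCAPD2 was added after seeing the data, and assumes that each lies in the NCAPD2 count. Motifs were searched in RefSeq promoter windows with Python 3.11.15. The libraries held no identical columns. The command in the file header asks for 1 strand, but the counts behave as if both were counted.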

Additional observations from a re-analysis of the deposited data

Results flagged for a closer look

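The knockdowns were compared directly over the same senescent background, and 9 of the 60 genes differed between them by edgeR at an adjusted p below 0.05. The 8 that were lower and the 1 that was higher under shMETTL14, of 57 tested, are smaller shares than the 18.7% and 16.5% over all tested genes. Many of the 57 held few counts in both knockdowns, which limits what could be called. With at least 10 counts in every library, 4 of 7 were lower (21.5% of all tested genes) and 0 higher (19.6%). With only the groups compared, 4 of 15 were lower (16.3%) and 1 higher (14.6%). With each library left out in turn, the calls of CENPF and ECT2 stood every time and the other 7 were lost at least once. The log2 difference of shMETTL14 minus shMETTL3 was -2.04 for KIF14, -1.99 for CENPF, -1.96 for CCNB2, -1.59 for KIF18A, -1.20 for CIT, -1.09 for SMC4, -0.99 for ECT2 and -0.66 for NCAPD2, and 1.45 for INCENP. The NCAPD2 difference was -0.07 (adjusted p = 0.898) once the reads of SCARNA10 were taken off. INCENP, KIF18A, KIF14, CCNB2 and SMC4 lost their call without shMETTL3 replicate 2. Each hairpin is the only one for its target, so an effect of METTL3 or METTL14 and an effect of the hairpin itself cannot be told apart.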

How the results depend on the processing

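For 19 genes (those of the naming rule, with ECT2 and NCAPD2), 1407 values kept their direction and side of the threshold over the alternatives, 103 were no longer called, 30 became called and 17 reversed. Low counts limit most knockdown differences.

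With DESeq2 the genes called lower were 24 (of 42 by edgeR) in senescence, 8 (of 24) under shMETTL3, 13 (of 25) under shMETTL14 and 5 (of 8) between the knockdowns. DESeq2 gave no adjusted p to 15 of the 57 genes in each knockdown comparison with shControl. With at least 10 counts required in every library, which left 7 of the genes, the counts lower were 4, 1, 2 and 4 (14.6%, 13%, 13.6% and 21.5% of all tested genes), with 0 higher between the knockdowns, and 4 and 7 for shMETTL3 and shMETTL14 against control (21.3% and 21.5%). The 1 of 7 under shMETTL3 is near the background share. Fitting only the groups compared gave 8 of 26, 15 of 26 and 4 of 15 lower for shMETTL3, shMETTL14 and between the knockdowns (9.55%, 16% and 16.3% of all tested genes), and an adjusted p below 0.01 gave 9, 16 and 4 of 57 (6.14%, 7.36% and 13%), with 0 higher between the knockdowns. Scaling by library size alone gave 12 lower and 3 higher under shMETTL3, where 2.75% of all tested genes were lower and 41.2% higher, and turned ECT2 in senescence to -0.34, CENPF under shMETTL3 to 0.28, and ERCC6L and NCAPD2 under shMETTL14 to 0.28 and 0.015. NCAPD2 under shMETTL3 against control was -0.0055 with upper-quartile scaling. Without SCARNA10 reads it was -1.67 there and -0.62 against shControl. The cause was not tested for the other settings.

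Leaving out each library gave 22 to 46 lower in senescence, 6 to 22 lower and 0 to 1 higher under shMETTL3, 10 to 31 lower under shMETTL14, and 2 to 12 lower and 0 to 3 higher between the knockdowns. Over all tested genes these fits called 5.59% to 15.9% lower in senescence and 5.76% to 14.3% lower under shMETTL14. With shMETTL3 they called 5.3% to 15.1% lower and 5.64% to 14.2% higher. Between the knockdowns the shares were 10.4% to 19.9% lower and 7.31% to 19.8% higher, so the 2 to 12 lower genes there show no excess over all genes. Some log2 values changed sign with a library left out. Under shMETTL3 they ranged from -0.21 to 0.46 for SMC2, -0.73 to 0.26 for CENPF, -0.86 to 0.55 for KIF18A and -0.015 to 0.34 for ECT2. Under shMETTL14 they ranged from -0.51 to 0.27 for ERCC6L and -0.37 to 0.42 for INCENP.

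With a replicate block the counts lower were 42 in senescence, 22 under shMETTL3, 24 under shMETTL14 and 8 between the knockdowns. Of the 12844 genes tested in that fit, 1673, 1445, 1530 and 2400 were lower. Same-numbered libraries deviated together little (correlations -0.041 to 0.088), which does not show whether they shared a culture or a batch.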
